A study of Mus musculus with 6 samples.

Results

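Cortical and hippocampal neuron identity genes were followed here as 9 genes, Cux2, Rorb, Lamp5, Fezf2, Bcl11b, Tbr1, Neurod6, Wfs1 and Prox1, out of 53801 genes in the counts table of the adult brain. The members were taken by gene name, and 8 of 9 were found in that way. Bcl11b was found by its Ensembl identifier and its description, because the table lists that row under the symbol Rit1. All 9 passed the filter on low counts, a sum of at least 10 over the libraries, as did 23975 genes in all.

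The study asked what loss of BAHD1, a chromatin protein that helps to silence genes, does to transcription in the brain. RNA-seq was run on RNA from 1 side of the sagittally cut brain of 3 Bahd1-/- (KO) mice and 3 Bahd1+/+ (WT) mice, all on the C57BL/6 strain and about 70 weeks old, with no treatment besides the genotype. The loss of Bahd1 was not limited to the brain, and many KO pups die around birth, so the KO mice are those that survived. Each side of the brain mixes cortex and hippocampus with all other regions, so in these bulk samples fewer cells of a type and less RNA per cell cannot be told apart. p-values measure only the spread between these 6 samples.

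Neurons of the cerebral cortex lie in layers, and each layer is set up and marked by its own transcription factors. Upper layer neurons mostly connect cortical areas with each other and carry Cux2 and Rorb, while deep layer neurons send axons out of the cortex and carry Fezf2, Bcl11b and Tbr1. In the hippocampus, pyramidal cells of the CA fields and granule cells of the dentate gyrus are told apart by genes such as Wfs1 and Prox1. Several of these genes are also used outside cortex and hippocampus: Bcl11b in striatal projection neurons, Prox1 and Lamp5 in interneurons, and Wfs1 in many neurons.

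None of the 9 genes passed the test between KO and WT, which required an adjusted p below 0.05 and a change of at least 2-fold (edgeR's quasi-likelihood test with Benjamini-Hochberg adjustment). Among all genes tested, 0.00834% passed it, while 4670 had an adjusted p below 0.1 (edgeR). The lowest adjusted p among members was 0.0643, that of Fezf2 (edgeR). At an unadjusted p below 0.05, 3 members were higher in KO (Fezf2, Lamp5 and Wfs1) and 1 was lower (Prox1), against 19.9% and 12% of all genes tested. DESeq2 with its normal prior on fold changes also called none of the members, where it called 9.61% of all genes higher and 0.909% lower. The 3 KO libraries lay above all WT libraries for 2 members, Fezf2 and Lamp5, and below them for 3 members, Rorb, Bcl11b and Prox1. The same separation was seen for 20.6% and 19.3% of all genes tested. The median log2 fold change of the members was -0.10, beside -0.061 over all genes tested.

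The libraries held between 42297150 and 93557948 counts, and the members had between 517 and 13724 counts per library, so counting error was small beside the spread between mice. Bahd1 checked the labels: it had 1383, 844 and 1099 counts in WT and 0, 14 and 1 in KO. Base composition differed with genotype across the whole table. In expressed genes (mean log2 CPM, counts per 1000000, above 1, n = 13292) the log2 fold change followed GC content. GC content was that of the longest transcript of each gene. The Spearman correlation was 0.86 across genes, which are not independent replicates. KO replicate 2 stood apart, with genes of over 57% GC at a median of 1.39 log2 units above their mean over the libraries. Mitochondrial genes took 13.4% to 16.3% of the counts in WT and 7.46% to 10.5% in KO. A second fit therefore carried an offset for GC content and length in each library, and its values are given beside the first as the offset values. After the offset the correlation across genes was -0.014.

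**Figure D1:**
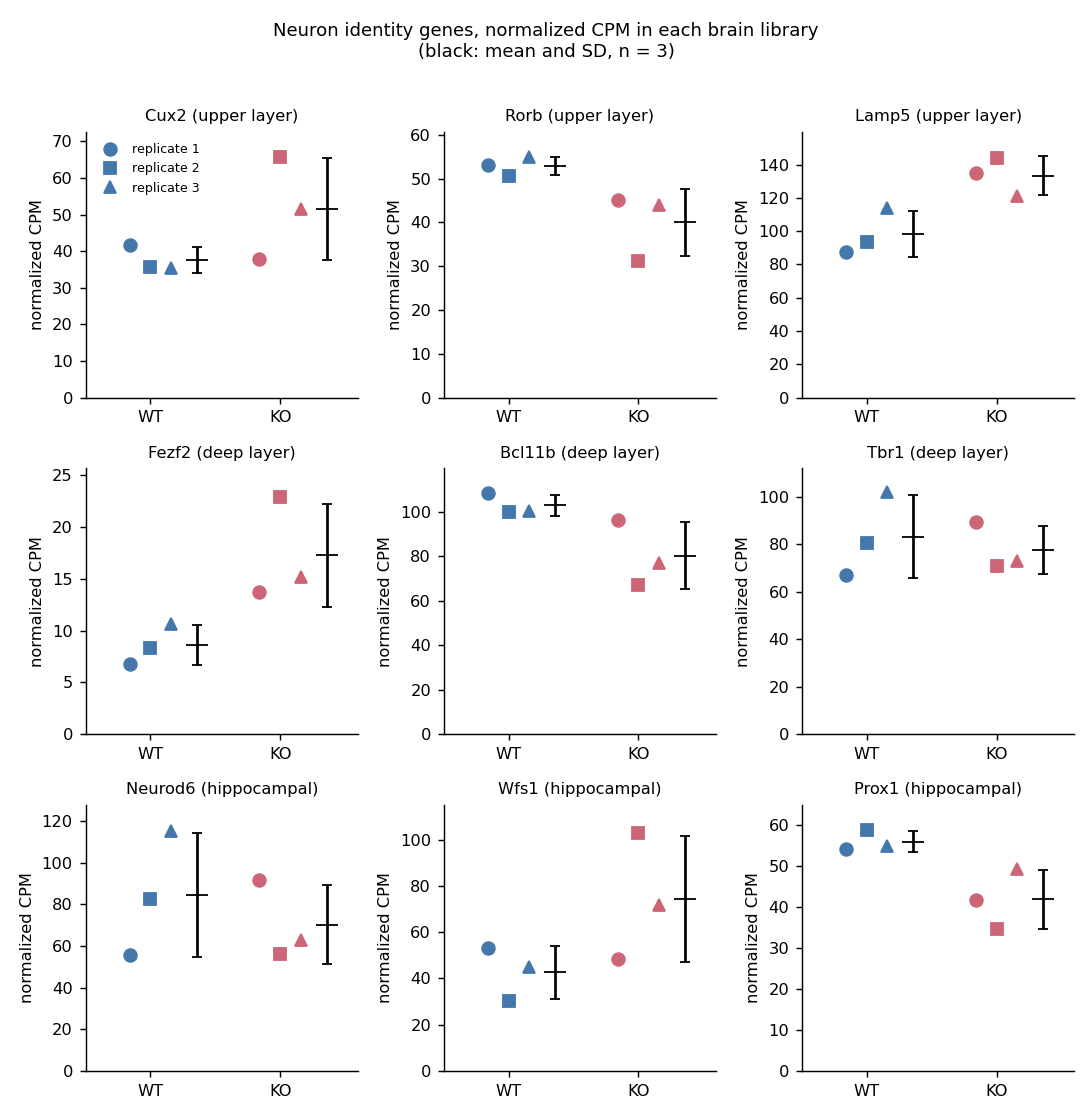
Normalized CPM (TMM-scaled counts per 1000000) of the 9 genes in each library, with WT in blue, KO in red, a marker shape for each replicate number, and the mean and SD in black (n = 3). KO lies above WT in all libraries for Fezf2 and Lamp5, and below WT in all libraries for Rorb, Bcl11b and Prox1; each panel has its own axis from 0.

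The upper layer genes differed in direction among themselves. Cux2 encodes a homeodomain transcription factor of layers 2 to 4 (ENSMUSG00000042589, chr5:121856366-122050102, minus strand, GRCm38). It was measured at 41.6, 35.6 and 35.3 CPM in WT and at 37.8, 65.7 and 51.5 CPM in KO replicates 1 to 3. KO replicate 1 lay inside the WT range and the other KO libraries lay above it, so the groups overlapped. The means were 37.5 ± 3.54 CPM in WT and 51.6 ± 13.9 CPM in KO (SD, n = 3), a log2 fold change of 0.46 (SE 0.22, adjusted p = 0.177, edgeR). With the offset the direction turned, to -0.31 (SE 0.10, adjusted p = 0.134, edgeR). On that scale Cux2 stood at 5.54, 5.73 and 5.52 log2 CPM in WT and at 5.39, 5.23 and 5.24 in KO, with each KO library below each WT library.

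Rorb encodes a nuclear receptor concentrated in layer 4, which receives input from the thalamus (ENSMUSG00000036192, chr19:18930605-19111196, minus strand). It was at 53.1, 50.7 and 54.9 CPM in WT and at 45.05, 31.3 and 43.9 CPM in KO. All KO libraries lay below all WT libraries, and KO replicate 2 was the lowest. The log2 fold change was -0.40 (SE 0.18, adjusted p = 0.166, edgeR), from 52.9 ± 2.14 to 40.1 ± 7.65 CPM. With the offset it was 0.084 (SE 0.10, adjusted p = 0.662, edgeR), and the groups overlapped.

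Lamp5, a membrane protein of the LAMP family that marks layer 2/3 neurons and a class of interneurons, was the upper layer gene that kept its direction (ENSMUSG00000027270, chr2:136052239-136069917, plus strand). Its values were 87.5, 93.2 and 114 CPM in WT and 135, 144 and 121 CPM in KO. Every KO library was above every WT library, with WT replicate 3 the nearest to the KO range. The means of 98.1 ± 13.7 and 133 ± 11.5 CPM gave a log2 fold change of 0.44 (SE 0.16, adjusted p = 0.109, edgeR). With the offset the difference was 0.32 (SE 0.10, adjusted p = 0.128, edgeR), and the KO libraries, at 7.01, 7.03 and 6.95 log2 CPM, still lay above the WT libraries at 6.51, 6.65 and 6.85. Lamp5 was the member with the lowest p in the offset fit. Leaving out 1 library at a time gave offset values between 0.24 and 0.41.

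Of the deep layer genes, Fezf2 had the highest fold change of the 9 members. Fezf2 encodes a zinc finger transcription factor that directs neurons of layer 5 to project below the cortex (ENSMUSG00000021743, chr14:12342094-12348189, minus strand). It was at 6.76, 8.37 and 10.7 CPM in WT and at 13.7, 22.95 and 15.2 CPM in KO, from 517 to 2186 counts. The groups did not overlap, and KO replicate 2 was the highest. The mean was 2.01 times that of WT, at 17.3 ± 4.96 against 8.605 ± 1.97 CPM, with a log2 fold change of 1.01 (SE 0.27, adjusted p = 0.0643, edgeR). DESeq2 with its normal prior gave 0.98 with an adjusted p of 0.00504, the only member below 0.05 in that test, just short of a 2-fold change. Without KO replicate 2 the log2 fold change was 0.74 (adjusted p = 0.085, edgeR). Without KO replicate 1 it was 1.18 (adjusted p = 0.0141, edgeR) and passed. With the offset it was 0.13 (SE 0.19, adjusted p = 0.742, edgeR), the groups overlapped, and the value lay between -0.078 and 0.30 when 1 library at a time was left out.

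Bcl11b, also named Ctip2, encodes a zinc finger transcription factor of corticospinal neurons, hippocampal neurons and striatal projection neurons (ENSMUSG00000048251, chr12:107910403-108003602, minus strand). It was at 109, 100.01 and 100.4 CPM in WT and at 96.6, 67.0 and 77.0 CPM in KO. KO replicate 1 lay just below the WT range and the other KO libraries well below it. The log2 fold change was -0.36 (SE 0.17, adjusted p = 0.182, edgeR), from 103 ± 4.83 to 80.2 ± 15.1 CPM. The offset left the value near the first, at -0.40 (SE 0.15, adjusted p = 0.175, edgeR), although KO replicate 1 then lay inside the WT range, at 6.67 log2 CPM against 6.66 to 6.74. Without KO replicate 1 the offset value was -0.59 with an adjusted p of 0.00876 (edgeR), under a 2-fold change, and without KO replicate 2 it was -0.28.

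Tbr1, a T-box transcription factor of layer 6 and of young glutamatergic neurons, differed less between the genotypes than within them (ENSMUSG00000035033, chr2:61802930-61814114, plus strand). WT libraries were at 67.1, 80.6 and 102 CPM and KO libraries at 89.2, 70.7 and 73.1 CPM. The KO range lay inside the WT range. The log2 fold change was -0.10 (SE 0.19, adjusted p = 0.742, edgeR), and it was 0.072 without WT replicate 3. With the offset it was -0.34 (SE 0.19, adjusted p = 0.343, edgeR).

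Among the hippocampal genes, Neurod6 encodes a basic helix-loop-helix factor of glutamatergic neurons in both cortex and hippocampus (ENSMUSG00000037984, chr6:55677822-55681263, minus strand). It had the widest spread within WT, at 55.7, 82.5 and 115 CPM, and was at 91.7, 56.0 and 62.8 CPM in KO. The KO range again lay inside the WT range. Its log2 fold change was -0.27 (SE 0.29, adjusted p = 0.534, edgeR), 0.022 without WT replicate 3, and 0.13 with the offset (SE 0.20, adjusted p = 0.755). WT replicate 1 was the lowest and WT replicate 3 the highest of the WT libraries for Neurod6, as for Tbr1, Lamp5 and Fezf2.

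Wfs1 encodes wolframin, a membrane protein of the endoplasmic reticulum that is abundant in CA1 pyramidal cells (ENSMUSG00000039474, chr5:36966104-36989205, minus strand). It was at 53.0, 30.2 and 44.8 CPM in WT and at 48.6, 103 and 71.7 CPM in KO. KO replicate 1 was below WT replicate 1, so the groups overlapped, while KO replicate 2 was far above all others. The means were 42.7 ± 11.6 and 74.4 ± 27.2 CPM, with a log2 fold change of 0.80 (SE 0.30, adjusted p = 0.114, edgeR). Without KO replicate 2 the value was 0.50 (adjusted p = 0.242, edgeR). Without KO replicate 1 it was 1.07 and passed, with an adjusted p of 0.0165 (edgeR). The offset turned the direction, to -0.29 (SE 0.12, adjusted p = 0.2, edgeR), with overlapping groups.

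Prox1 encodes a homeobox factor that dentate granule cells need in order to form and keep their identity (ENSMUSG00000010175, chr1:190118035-190170714, minus strand). It was at 54.04, 58.8 and 54.9 CPM in WT and at 41.6, 34.7 and 49.2 CPM in KO. Each KO library lay below each WT library, and the WT libraries were close to each other. The log2 fold change was -0.42 (SE 0.17, adjusted p = 0.139, edgeR), from 55.9 ± 2.52 to 41.8 ± 7.26 CPM. With the offset it was -0.14 (SE 0.10, adjusted p = 0.464, edgeR), and the groups overlapped. The offset value was -0.059 without KO replicate 1 and -0.21 without KO replicate 3. Prox1 shares 133 exonic bases with the antisense gene Prox1os, which had 34 to 138 counts per library against 1809 to 4945 for Prox1.

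Each member can be set beside expressed genes of like GC content. The 3 members with 54% to 58% GC, Cux2, Fezf2 and Wfs1, had log2 fold changes of 0.46 to 1.01. The 2204 expressed genes of that range had a median of 0.83. Rorb and Neurod6, at 41.6% and 41.9% GC, were at -0.40 and -0.27, where 2723 expressed genes of 40% to 45% GC had a median of -0.41. Prox1, with 45.3% GC, was at -0.42, and its range of 45% to 50% had a median of -0.17. Lamp5, Bcl11b and Tbr1 lay between 50% and 54% GC, where the median was 0.24 and the interquartile range of the genes ran from 0.034 to 0.52. Of these, Bcl11b and Tbr1 lay below that range and Lamp5 inside it. Against expressed genes within 1 percentage point of their own GC content, 3 members, Rorb, Fezf2 and Wfs1, lay inside the interquartile range. Above it were 2 members, Lamp5 (upper bound 0.30) and Neurod6 (upper bound -0.34). Below it were 4 members, Bcl11b (lower bound -0.12), Tbr1 (0.050), Cux2 (0.49) and, by the least, Prox1 (-0.41).

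**Figure D2:**
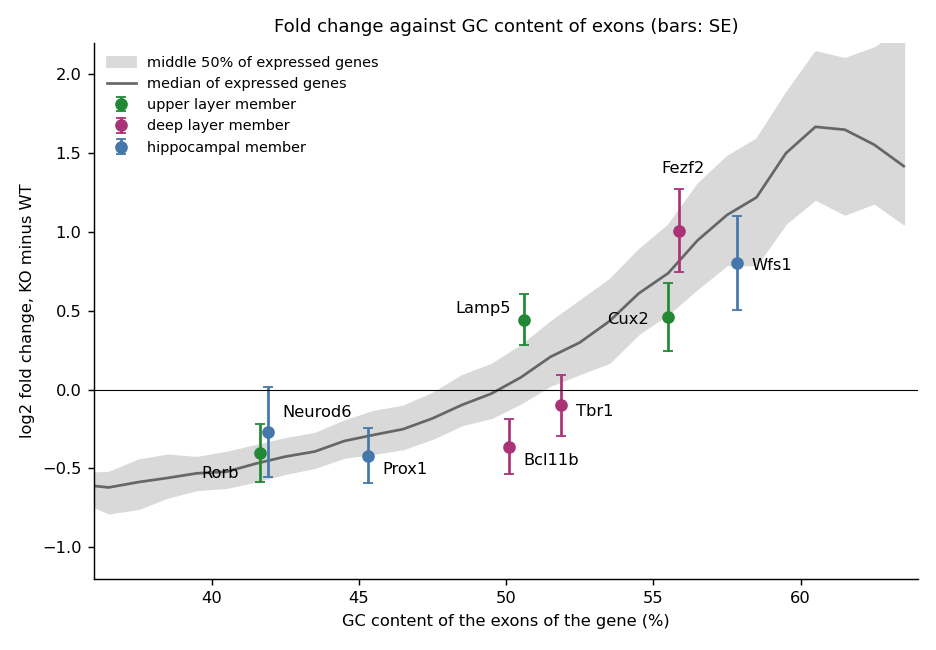
Log2 fold change, KO minus WT, against GC content (%), which is that of the longest transcript of each gene although the axis names exons. The 9 members are points (bars: SE) coloured by group. Grey shows the median and the middle 50% of expressed genes in steps of 1 percentage point. Rorb, Fezf2 and Wfs1 lie inside the rising grey band, Lamp5 (0.44) and Neurod6 (-0.27) above it, and Bcl11b (-0.36), Tbr1 (-0.10), Cux2 (0.46) and Prox1 (-0.42) below it, the last of these near its edge.

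The contrast in base composition can be read from the transcripts themselves. The first 120 coding bases of the exon with the longest coding part are printed for the member with the highest fold change, Fezf2, for Neurod6, a member with low GC content, and for Lamp5 and Bcl11b, whose values moved least with the offset. Sequences are from GENCODE transcripts on GRCm38, 5′ to 3′ in the sense of the gene, with every G and C in capitals.
Fezf2, exon 2 of 5, from the start codon, chr14:12345066-12345185, minus strand: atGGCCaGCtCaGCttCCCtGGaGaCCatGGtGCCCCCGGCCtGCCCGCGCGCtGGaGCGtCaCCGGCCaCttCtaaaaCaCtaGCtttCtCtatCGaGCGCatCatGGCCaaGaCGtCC
Neurod6, exon 2 of 2, from the start codon, chr6:55679531-55679650, minus strand: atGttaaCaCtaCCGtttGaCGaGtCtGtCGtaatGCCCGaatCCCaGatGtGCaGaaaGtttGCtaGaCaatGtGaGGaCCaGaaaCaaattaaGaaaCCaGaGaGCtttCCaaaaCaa
Lamp5, exon 5 of 6, chr2:136060838-136060957, plus strand: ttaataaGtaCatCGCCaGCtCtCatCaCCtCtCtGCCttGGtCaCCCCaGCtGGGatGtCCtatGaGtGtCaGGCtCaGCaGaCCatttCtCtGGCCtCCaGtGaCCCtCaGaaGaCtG
Bcl11b, exon 4 of 4, chr12:107917295-107917414, minus strand: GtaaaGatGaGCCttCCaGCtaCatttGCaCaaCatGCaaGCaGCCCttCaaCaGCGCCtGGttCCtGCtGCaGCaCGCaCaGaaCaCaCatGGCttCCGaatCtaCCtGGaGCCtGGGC
G and C made up 62.5% of the Fezf2 stretch, 41.7% of the Neurod6 stretch, 53.3% of the Lamp5 stretch and 55% of the Bcl11b stretch. Over the longest transcript of the gene the shares were 55.9%, 41.9%, 50.6% and 50.1%. Bcl11b combined a coding sequence of 64.4% GC with long flanking exon parts, so that its whole transcript of 8111 bases held 50.1%.

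With the offset, 1 member was higher at an unadjusted p below 0.05 (Lamp5) and 3 were lower (Cux2, Bcl11b and Wfs1), against 9.89% and 11.4% of all genes tested. The lowest adjusted p among members was 0.128 (edgeR), so none passed. The offset changed the sign of 4 members, Cux2, Rorb, Neurod6 and Wfs1. Over all 9 members the values lay between -0.42 and 1.01 without the offset and between -0.40 and 0.32 with it, with a median of -0.14. On the offset scale the genotypes did not overlap for 2 members, Lamp5, with KO higher as without the offset, and Cux2, with KO lower, whose groups had overlapped without it. That separation was seen for 11.5% of all genes tested with KO higher and for 14.9% with KO lower.

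**Figure D3:**
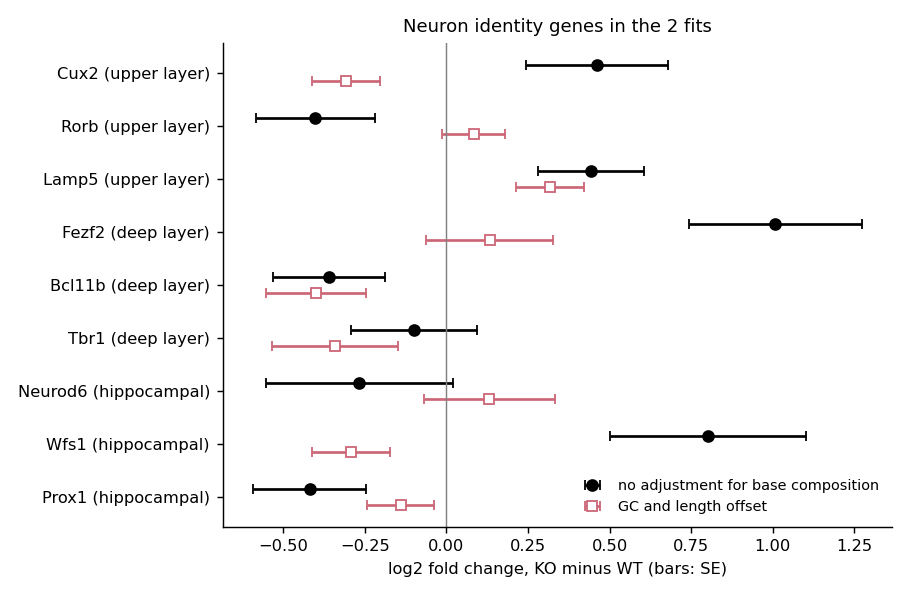
Log2 fold change, KO minus WT, of the 9 genes in the fit without adjustment (black circles) and in the fit with the GC and length offset (open red squares), with SE bars. Lamp5 and Fezf2 stay above 0 and Bcl11b, Tbr1 and Prox1 below 0 in both fits, Fezf2 moving from 1.01 to 0.13, and Cux2, Rorb, Neurod6 and Wfs1 cross 0.

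The members also differed in the promoters from which they are read. RefSeq promoters (GRCm38.p6), read over the 250 bases before the listed start, were found for each of the 9 members. The windows of Cux2, Fezf2 and Tbr1 lay wholly inside the gene as GENCODE annotates it, and those of Wfs1, Bcl11b and Lamp5 held 223, 188 and 100 bases of it, so their counts are partly or wholly of transcribed sequence. These windows ranged from 3 CpG dinucleotides in Lamp5 and Neurod6 to 40 in Cux2, beside a median of 6 over 32851 windows of mouse genes. The windows of Rorb, Prox1 and Neurod6 are printed, since they held no annotated exon, with each CG in capitals, 5′ to 3′ towards the start of the gene.
Rorb, chr19:19111197-19111446, minus strand: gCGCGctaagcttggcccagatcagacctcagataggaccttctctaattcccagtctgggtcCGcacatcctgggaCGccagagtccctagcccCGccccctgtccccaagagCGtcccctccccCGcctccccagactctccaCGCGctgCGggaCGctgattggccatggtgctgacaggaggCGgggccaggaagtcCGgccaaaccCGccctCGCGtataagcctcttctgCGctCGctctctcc
Prox1, chr1:190170828-190171077, minus strand: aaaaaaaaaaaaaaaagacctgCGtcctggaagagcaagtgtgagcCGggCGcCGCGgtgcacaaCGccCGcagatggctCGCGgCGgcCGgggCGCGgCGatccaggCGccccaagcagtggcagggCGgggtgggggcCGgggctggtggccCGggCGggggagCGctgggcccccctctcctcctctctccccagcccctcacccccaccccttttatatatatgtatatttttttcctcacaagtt
Neurod6, chr6:55681264-55681513, minus strand: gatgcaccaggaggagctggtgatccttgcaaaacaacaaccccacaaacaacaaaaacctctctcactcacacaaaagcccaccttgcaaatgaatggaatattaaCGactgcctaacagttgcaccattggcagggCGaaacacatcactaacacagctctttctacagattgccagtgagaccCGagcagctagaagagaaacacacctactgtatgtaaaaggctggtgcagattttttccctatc
Rorb held 18 CpG and Prox1 held 20, counts reached by 21.7% and 18% of all windows. Neurod6 held 3, a count reached by 71% of all windows. Fezf2 had 14, Bcl11b 9, Tbr1 5 and Wfs1 23. The E-box letters CAGATG, searched on both strands as a motif of bHLH factors such as the NEUROD family, were in the windows of Wfs1 and Prox1 and in 14.4% of all windows. The T-box letters GGTGTGA, on either strand, were in none of the 9 windows and in 3.33% of all windows. The looser E-box CANNTG, which includes CAGATG, was in 6 of the 9 and in 66.2% of all windows.

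Levels are compared between genes as CPM per kilobase of exon. In WT the order from high to low was Neurod6 (39.2 ± 13.8), Lamp5 (33.5 ± 4.67), Tbr1 (15.2 ± 3.20), Bcl11b (12.7 ± 0.60), Wfs1 (11.3 ± 3.05), Prox1 (6.67 ± 0.30), Rorb (4.78 ± 0.19), Cux2 (3.72 ± 0.35) and Fezf2 (2.82 ± 0.65). The ranges of neighbours overlapped for Neurod6 and Lamp5, for Tbr1 and Bcl11b, for Bcl11b and Wfs1, and for Cux2 and Fezf2. In KO the order was Lamp5 (45.5), Neurod6 (32.6), Wfs1 (19.6), Tbr1 (14.2), Bcl11b (9.89), Fezf2 (5.67), Cux2 (5.12), Prox1 (4.98) and Rorb (3.62). By its mean Fezf2 was thus the lowest member in WT and the sixth in KO, but in KO its range overlapped those of Cux2 and Prox1, and Prox1 was above it in KO replicates 1 and 3. The spread between mice was smallest in WT for Rorb, Prox1 and Bcl11b, at 4.05%, 4.51% and 4.69% of the mean, and largest for Neurod6 at 35.2%.

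Across the 6 libraries, which share depth and base composition as sources of variation, the most alike gene was named for each member by Pearson's r of log2 CPM over 13291 expressed genes. Each r was the highest of 13291 over only 6 libraries, so the choice itself favoured high values. Neurod6 was most like Tbr1 (r = 0.987), the only member whose nearest gene was another member. Cux2 was most like Tmem110, Rorb like Celf2, Fezf2 like Amph, Bcl11b like Efemp1, Wfs1 like Fgd5 and Prox1 like Pcdhb16, at r from 0.997 (Fezf2) to 0.9996 (Cux2). Tbr1 was most like Gm43672 (r = 0.998) and Lamp5 like Pcgf1 (r = 0.986). How many genes were that alike varied: r was above 0.95 with 1678 genes for Wfs1, 1417 for Cux2 and 1044 for Rorb, but with 20 for Tbr1, 23 for Neurod6 and 38 for Lamp5. After the offset the r of these pairs was 0.39 for Neurod6, 0.55 for Bcl11b, 0.74 for Cux2 and 0.83 for Wfs1, and from 0.915 (Rorb) to 0.967 (Tbr1) for the others.

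Other genes of the same neurons were counted in lists, none of whose genes passed the test in edgeR. Their counts stand beside the shares of all genes tested at an unadjusted p below 0.05. These were 19.9% higher and 12% lower, or 9.89% and 11.4% with the offset. Of 15 pallial glutamatergic neuron genes, 5 were higher at an unadjusted p below 0.05 and none was lower, and the list had a median of -0.026 on the log2 scale. Camk2a, the kinase subunit of excitatory synapses, was the most abundant, at 1092 ± 169 CPM in WT and 1568 ± 338 CPM in KO (log2 fold change 0.52, SE 0.21, adjusted p = 0.131, edgeR, and 0.069 with the offset). The homeobox gene Emx1 had the highest log2 fold change, 2.42 (SE 0.65), at 0.55 to 0.78 CPM in WT and 1.20, 8.001 and 1.90 CPM in KO, and 66.8% GC, and its offset value was 0.11. The lowest was that of the bHLH gene Bhlhe22, -0.48 (SE 0.24), or -0.71 with the offset. With the offset 1 of the 15 was higher and 6 were lower at an unadjusted p below 0.05, with a median of -0.13.

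Of 15 other upper layer genes, 6 were higher and 2 lower at an unadjusted p below 0.05, with a median of 0.082, and with the offset 1 was higher and 1 lower. Calb1, the calcium-binding protein calbindin, was the most abundant (563 ± 68.5 CPM in WT, 398 ± 119 CPM in KO, log2 fold change -0.50), and the offset turned its direction, to 0.11. Whrn was the highest at 2.30 (SE 0.54), or 0.45 with the offset, and the POU factor gene Pou3f2 the lowest at -0.55 (SE 0.20), or -0.25 with the offset. Of 18 other deep layer genes, 5 were higher and 2 lower, with a median of -0.10. With the offset 3 were higher and none lower. Etv1, an ETS factor of layer 5, stood at 230 ± 19.2 CPM in WT and 178 ± 49.6 CPM in KO, a log2 fold change of -0.37 that turned to 0.19 with the offset. Nxph4 was the highest of this list at 1.80 (SE 0.37) and the receptor gene Npr3 the lowest at -0.59 (SE 0.25), with offset values of 0.27 and -0.25.

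For the hippocampus, 12 dentate granule cell genes had a median of -0.29, with 3 higher and 1 lower at an unadjusted p below 0.05. With the offset the median was -0.12, with 1 higher and 3 lower. Stxbp6 was the most abundant of them (159 ± 15.9 CPM in WT, 116 ± 40.4 CPM in KO, offset log2 value -0.094). Plk5 had the highest value at 2.95 (SE 0.68) and 61.4% GC, from 1.24 to 2.03 CPM in WT and 2.99, 25.1 and 8.17 CPM in KO, and was at 1.16 with the offset. Rfx3 had the lowest at -0.61 (SE 0.26), or -0.10 with the offset. The 15 CA field genes had a median of 0.41, with 6 higher and 2 lower, and -0.018 with the offset, with 3 higher and 3 lower. Nnat was the most abundant (215 ± 55.0 CPM in WT, 236 ± 56.0 CPM in KO), and its log2 fold change of 0.14 turned to -1.01 with the offset. Fibcd1 was the highest at 1.63 (SE 0.32) and Zbtb20 the lowest at -0.57 (SE 0.23), with offset values of 0.36 and -0.032. Of 14 family relatives of the members, 1 was higher and 2 were lower, from Neurod4 at -0.84 (SE 0.33) to Tbx21 at 0.91 (SE 0.99), both at 2 CPM or less in every library, and with the offset at -0.22 and -0.11. Lamp1, the abundant lysosomal relative of Lamp5, was at 397 ± 12.8 CPM in WT and 469 ± 48.4 CPM in KO, with an offset value of -0.0039.

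**Figure D4:**
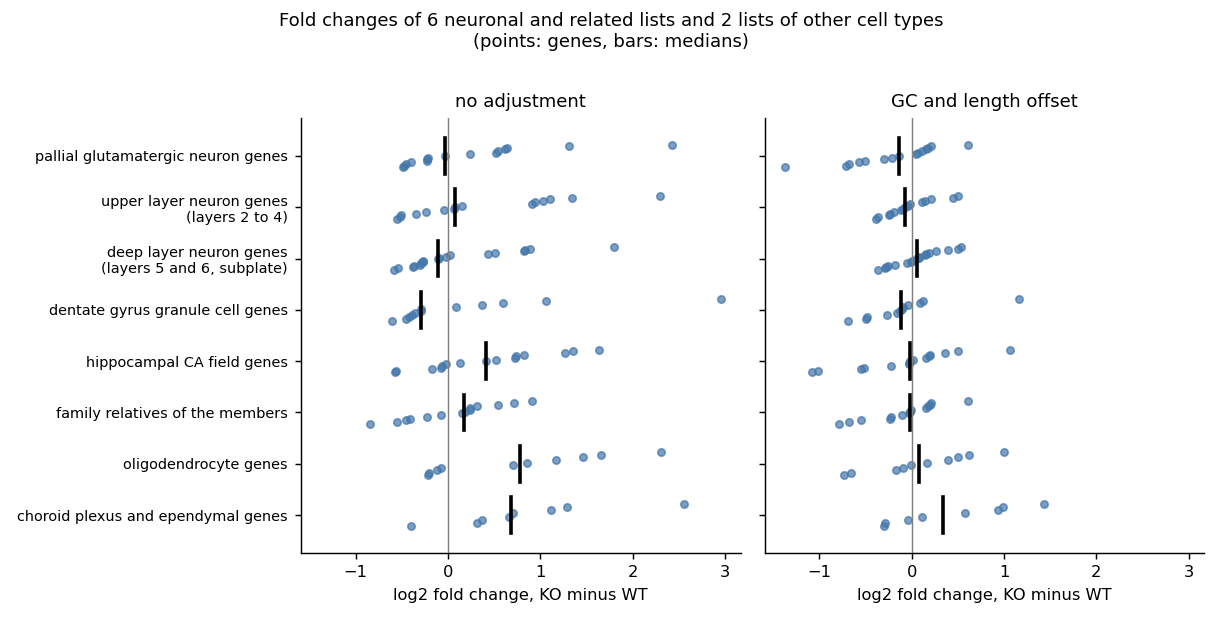
Log2 fold change, KO minus WT, of each gene (points) in 6 neuronal and related lists and in the oligodendrocyte and choroid plexus lists, with the median of each list as a black bar, without adjustment (left) and with the GC and length offset (right). The median of the CA field genes moves from 0.41 to -0.018 and that of the oligodendrocyte genes from 0.78 to 0.081.

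Markers of other cells were counted in the same way, and none of them passed the test in edgeR. Their part in the values of the 9 members was not tested. The summed level of 10 oligodendrocyte genes was 5194 to 5986 CPM in WT and 5449 to 8528 CPM in KO, with 6 of 10 higher at an unadjusted p below 0.05, where 19.9% of all genes tested were. With the offset 4 of the 10 were higher and 2 lower. The summed level of 8 choroid plexus and ependymal genes was 257 to 357 CPM in WT and 446 to 1082 CPM in KO, without overlap, but this was largely the sum of 1 gene, Ttr, the thyroxine carrier transthyretin of the choroid plexus. Without Ttr the other 7 summed to 43.7 to 48.6 CPM in WT and 44.2 to 63.3 CPM in KO, with overlap. Kl was the largest part of that sum, at 34.5 CPM in WT and 26.1 CPM in KO, with each KO library below each WT library. Its log2 fold change was -0.40, the 1 negative value among the 8 genes without the offset. The list had a median of 0.68, or 0.34 with the offset. Each KO library lay above each WT library for Ttr, Foxj1 and Ccdc153. Foxj1 was at 2.56 and Ccdc153 at 1.12, or 0.93 and 0.99 with the offset. The oligodendrocyte sum rested on Mbp, myelin basic protein, as the choroid plexus sum did on Ttr. Without Mbp it was 3992 to 4669 CPM in WT and 3848 to 4342 CPM in KO. The 7 lung epithelium genes were present in WT, at 115, 27.2 and 2.44 CPM, and at most at 1.44 CPM in KO. Striatal projection neuron genes, which share Bcl11b with the members, summed to 786 to 976 CPM in WT and 849 to 1168 CPM in KO, with overlap. The summed levels overlapped between the genotypes for 12 GABAergic interneuron genes, which share Lamp5 and Prox1 with the members, at 1561 to 1816 CPM in WT and 1421 to 1839 CPM in KO. They also overlapped for the thalamic and midbrain, cerebellar, astrocyte, microglia, endothelial and mural and pituitary lists, with and without the most abundant gene of each. The olfactory epithelium list overlapped through Gnal, a G protein subunit gene. Without Gnal the other 4 genes summed to 23.5 to 34.1 CPM in WT and 43.9 to 64.7 CPM in KO. The largest part of that sum was Adcy3, with means of 19.8 CPM in WT and 39.9 CPM in KO and an offset value of 0.051. Omp and Cnga2 overlapped between the genotypes, and Ano2 was lower in each KO library than in each WT library. At an unadjusted p below 0.05, 19.9% of all genes tested were higher and 12% lower, or 9.89% and 11.4% with the offset. Of 12 GABAergic genes 4 were higher and 1 lower, or 1 higher and 2 lower with the offset. Striatal genes had 2 of 10 higher and 2 lower, or 0 higher and 3 lower with the offset. In both fits 3 of 8 choroid plexus and ependymal genes were higher and 1 lower, and all 7 lung epithelium genes were lower. In the same way 3 of 10 thalamic and midbrain genes were higher and 1 lower in both fits. For cerebellar genes it was 2 of 10 higher, or 3 higher and 2 lower with the offset. Astrocyte genes had 4 of 8 higher and 1 lower, or 4 higher and 0 lower with the offset. Of 8 microglia and 8 endothelial and mural genes 3 each were higher. With the offset 0 microglia genes were higher and 2 lower, and 2 endothelial and mural genes were higher. Of 6 pituitary and 5 olfactory epithelium genes 1 each was higher, or 0 with the offset.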

How the data were processed

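Per the labels and the study's methods, total RNA from 1 side of the brain of each of 3 WT and 3 KO mice was made into poly(A) libraries with a TruSeq kit. The authors deposited raw counts per gene. The submitters' processing notes name cutadapt 1.11, STAR 2.5.0a, featureCounts 1.4.6-p3, R 3.5.1 and DESeq2 1.20.0 on GRCm38. The methods also name a second aligner, and describe the sequencing run in 2 ways, so which applied to these counts is uncertain. Counting is stated as forward-stranded for a stranded kit that usually needs the opposite setting, so which strand was counted is uncertain. Mbp (1202 to 4373 CPM) and Slc1a2 (1761 to 3719 CPM) had levels that antisense reads alone would hardly give. Reads of a gene and its antisense partner may not be fully told apart. Technical runs of a mouse are 1 column.

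Counts were tested with edgeR 4.0.16 in R 4.3.3 (TMM, quasi-likelihood, no covariate, all 6 libraries, count sum of at least 10), with Benjamini-Hochberg adjustment over 23975 genes. Calls required an adjusted p below 0.05 and at least 2-fold. CPM are TMM-scaled, and log2 CPM used a prior count of 2. SE were derived from the test statistic. Length is that of merged exons and GC content that of the longest transcript of each gene (GENCODE on GRCm38, 53706 genes matched). The offset subtracts from each library a smooth fit of log2 CPM on GC content (5 spline degrees of freedom) and log length (3), fitted on genes with a mean log2 CPM above 1. Such an offset also removes any true difference that follows GC content. Depth ran from 42297150 to 93557948 counts, and intervals of counting error were not needed at these counts. Alternatives were DESeq2 1.42.0, other scalings and filters, leaving out each library, a replicate block and the offset fits. The scripts were tested on simulated data.

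The members and the 18 lists were chosen with earlier results of these data known. Named were all members, Bahd1, the gene most alike to each member and, by list, the gene with the highest mean CPM, the highest and the lowest log2 fold change. This rule covers every list, but such genes are given here only for the 5 neuronal lists of cortex and hippocampus and for the family relatives. The other 12 lists serve as checks for other cells and are given by counts and summed levels. Ttr, Mbp, Gnal, Kl and Adcy3 are named where a sum turned on 1 gene or a gene went against it. Foxj1, Ccdc153, Omp, Cnga2 and Ano2 are named after their values were seen, to show other genes of those lists. In each of the 18 lists edgeR called 0 genes.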

Additional observations from a re-analysis of the deposited data

How the results depend on the processing

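Over all genes, edgeR called 2, also with DESeq2's size factors, upper-quartile factors or edgeR's own filter, and the number rose to 2522 with DESeq2 and its normal prior, 2761 with DESeq2 without it, 2007 with scaling by total counts and 2770 without a filter on low counts. It was 7 with the replicate block, 4 with the offset, 9 with the offset and the block, and 183 with the offset in DESeq2. Leaving out 1 library at a time gave 0 to 3993 genes, the highest number without KO replicate 1 (474 without KO replicate 2), and 3 to 973 with the offset. The offset fits that leave out a library were chosen after seeing the data. Among the members, Fezf2 was called by DESeq2 without the prior, with total counts and without a filter (1 member each), and 0 to 2 members were called with 1 library left out, both without KO replicate 1. Members at an unadjusted p below 0.05 numbered 4, and 1 to 6 with 1 library left out (1 without WT replicate 2, 2 without WT replicate 1, WT replicate 3 or KO replicate 2). Members with separate groups numbered 5, and 2 with the offset. Scaling moved the median log2 fold change over all genes from -0.061 to 0.014 with total counts and to -0.20 with upper-quartile factors, with no change of sign in a member.

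The offset turned Cux2 to -0.31, Rorb to 0.084, Neurod6 to 0.13 and Wfs1 to -0.29. In DESeq2 it gave -0.28, 0.10, 0.13 and -0.26. With 1 library left out the offset values ran from -0.35 to -0.24 for Cux2, 0.028 to 0.13 for Rorb, -0.07 to 0.43 for Neurod6, -0.40 to -0.23 for Wfs1 and -0.078 to 0.30 for Fezf2. They ran from -0.52 to -0.19 for Tbr1 and -0.21 to -0.059 for Prox1. Without an offset, leaving out a library gave -0.23 to 0.072 for Tbr1 and -0.49 to 0.022 for Neurod6, both positive only without WT replicate 3. It gave 0.25 to 0.68 for Cux2, -0.47 to -0.26 for Rorb, 0.74 to 1.19 for Fezf2, 0.50 to 1.07 for Wfs1 and -0.55 to -0.30 for Prox1.

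Same-numbered WT and KO libraries deviated in opposite ways (correlations of -0.64, -0.66 and -0.14 over genes, beside a mean of 0.24 for other pairs). Deviations were taken from the mean of each genotype, which ties these correlations to each other. They cannot show whether same-numbered mice were paired, and the labels give only a replicate number. With the replicate block 1 member (Fezf2) was at an unadjusted p below 0.05 and the lowest adjusted p was 0.129. With the offset and the block Cux2 was at -0.31, Rorb at 0.086, Neurod6 at 0.19 and Wfs1 at -0.29. Depth did not limit these genes, the lowest count being 517. With 3 mice a genotype, the differences in Tbr1 and Neurod6 lay within the spread between mice. The other members differed by more beside that spread, but no member had an adjusted p below 0.05 in the first edgeR fit.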
